A study of Arabidopsis thaliana with 6 samples.

Results

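The comparison described here sets Arabidopsis thaliana cells after 5 days in a low differentiating liquid medium against the callus from which they came. It rests on 2 of the 6 arrays of the series, chosen by their labels: the low medium array of day 5 and the callus array of day 0. The study followed cultured cells of ecotype Ler whose title names trans-differentiation, and RNA was read on 1-colour ATH1 arrays, whose probe sets each report the brightness of 1 transcript or of a few similar ones. The low medium held MS salts, 0.2% sucrose, 4% mannitol, 0.5 mg/l of the auxin 2,4-D and 1.5 µg/l of the cytokinin kinetin, and cells stood in it for 5 days at 22 °C on a shaker at 105 rpm. The callus had been grown for 2 weeks in darkness at 22 °C on Gamborg B5 with 2.0% glucose, 0.5 mg/l 2,4-D and 0.05 mg/l kinetin, from leaves of seedlings aged 14 to 17 days, and had not been moved to liquid. The other 4 arrays, given beside these, are low medium at day 9 and the high differentiating medium, with 0.2 mg/l auxins and 1 mg/l benzyladenine, at days 2, 5 and 9.

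The groups therefore differ in sugar, osmoticum, kinetin, salts, liquid culture and days of growth at once, and these cannot be told apart. Each condition has 1 array, so no difference below has a replicate check and no p-value is given. The labels do not say whether an RNA sample was pooled from several cultures, nor which cell type formed. Their growth text gives the hormones of the high medium for every sample while the extraction text mentions seedlings; each sample's name and treatment were used to assign its medium. In bulk RNA, fewer cells of a type and less RNA per cell cannot be told apart.

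As background, callus is a mass of dividing plant cells kept growing by auxin and cytokinin, and sugar is its carbon source. Small heat-shock proteins hold unfolding proteins until larger chaperones such as Hsp70, helped by DnaJ and Hop proteins, refold them. Class III peroxidases are secreted enzymes that cross-link or loosen the cell wall, while glutathione transferases and UDP-glycosyltransferases attach glutathione or sugars to hormones, defence compounds and foreign chemicals.

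Values are deposited intensities on a linear scale, and those below 24.7 were raised to that floor before log2 ratios of low medium at day 5 over callus were taken. Where only 1 array lay at the floor the ratio is a bound, given as at least or at most, and a gene at the floor on both arrays has no ratio. A gene is said to have risen or fallen where the arrays differed at least 2-fold. Among 22746 probe sets that are not controls, 14626 had a ratio, 448 (1.97%) were higher and 545 (2.4%) were lower. The larger differences leaned upward: at a 4-fold limit 93 were higher and 44 lower, and at 8-fold the counts were 40 and 6. The median log2 ratio was -0.01, and the range from the 5th to the 95th percentile was -0.90 to 0.83. Among the 13355 named genes, 244 (1.83%) were higher and 247 (1.85%) were lower. Genes at the floor on both arrays are counted in these shares. A list count below therefore compares with the number of members measured, not with the number with a ratio. The arrays had the same overall level, with trimmed means of 99.2 to 99.4 on all 6, but the scan background was 105.48 on the low medium array of day 5, against 69.04 on the callus array and 73.96 to 82.04 on the other 4. The GAPDH control's 3' probes over its 5' probes, a ratio sensitive to RNA breakage, gave 1.14 in low medium at day 5 and 0.969 in callus. It gave 1.06 to 1.15 on the other 4 arrays, so the callus value was the lowest. The same ratio for the Actin control was 1.37 in low medium at day 5, 1.29 in callus and 1.26 to 1.45 on the other 4. The part of background and RNA state in the results was not tested.

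**Figure D1:**
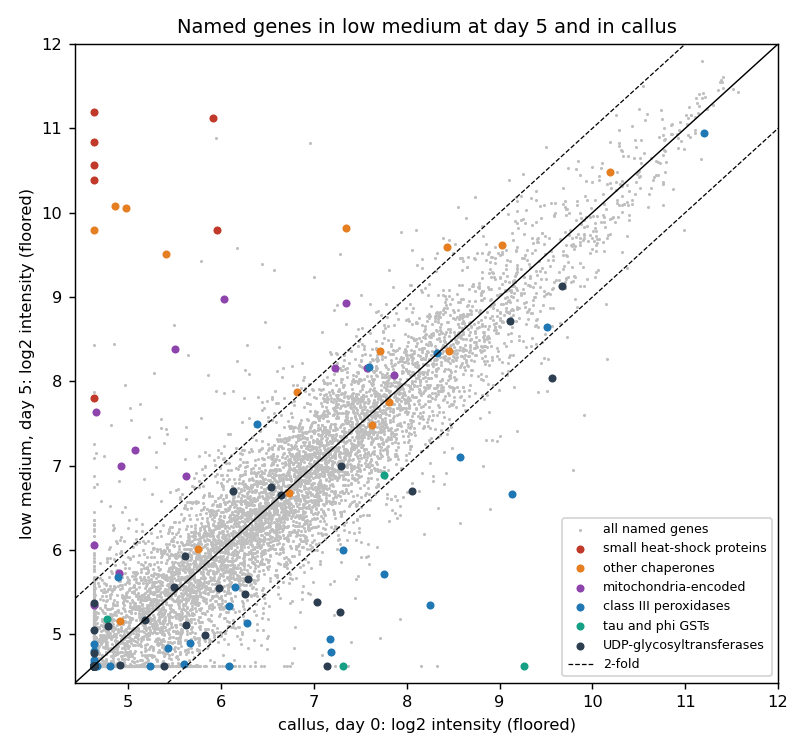
Each point is 1 named gene, with its log2 intensity in callus on the x axis and in low medium at day 5 on the y axis, both raised to the floor of 24.7; coloured points are gene lists and dashed lines mark 2-fold. The 7 small heat-shock genes with a ratio lie far above the diagonal, and 9 class III peroxidase genes lie below the lower 2-fold line.

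Small heat-shock genes rose in low medium at day 5. Of 17 small heat-shock genes listed by locus, 9 were measured, 7 had a ratio and all 7 were at least 2-fold higher. Their median log2 ratio was at least 5.76, against -0.00 over the 8010 named genes with a ratio. Over all 9 measured genes the median was 5.22. Most of the 7 lay below the floor in callus. These have a ratio only because they read above it in low medium at day 5, so they could not have fallen. Only AT1G54050 and AT5G51440 were above the floor on both arrays. AT1G53540 read 2349 in low medium at day 5 and 9.1 in callus, below the floor, a log2 ratio of at least 6.57. AT1G52560 read 1517 in low medium at day 5 against 1.3 in callus, a log2 ratio of at least 5.94. Both were below the floor in callus and far above it in low medium at day 5. ATHSP22.0, which encodes a small heat-shock protein of the endoplasmic reticulum, read 1341 in low medium at day 5 against 12.6 in callus. AT1G54050 was above the floor on both arrays, at 2234 in low medium at day 5 and 60.1 in callus, a log2 ratio of 5.22. The mitochondrial small heat-shock gene AT5G51440 read 887 in low medium at day 5 and 61.9 in callus, a log2 ratio of 3.84, and AT5G37670 had at least 3.18. Small heat-shock genes of 1 class resemble each other, so a probe set may take signal from a near copy.

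The same genes were read at every time. AT1G52560 read 1.3 in callus, 1517 and 542 in low medium at days 5 and 9, while high medium gave 315, 1222 and 586 at days 2, 5 and 9. ATHSP22.0 read 12.6 in callus, 1341 and 513 in low medium, and 222, 1011 and 451 in high medium at the same days. AT5G51440 read 61.9 in callus, 887 and 347 in low medium, and 342, 791 and 431 in high medium. In each of these genes day 5 was the highest of the days read in both media, and day 9 lay between callus and day 5. All comparisons with callus share the single callus array.

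Other chaperones varied from gene to gene. Of 49 listed, 18 were measured and 16 had a ratio, with a median log2 ratio of 0.62. At least 2-fold higher were 7 and 0 were lower, against 1.83% and 1.85% of all named genes. AT5G48570, an FKBP-type immunophilin also named ROF2, read 1080 in low medium at day 5 and 28.9 in callus, a log2 ratio of 5.22. Hop3, which links Hsp70 to Hsp90, read 886 in low medium at day 5 and 18.2 in callus, a log2 ratio of at least 5.17. AT2G20560, a DnaJ-family co-chaperone, read 1067 in low medium at day 5 and 31.5 in callus, a log2 ratio of 5.08. Hop3 was below the floor in callus, while the other members of this trio were above it on both arrays. HSA32, a protein needed for lasting heat tolerance, read 728 in low medium at day 5 and 42.5 in callus, 17.1-fold higher. Fes1A, an Hsp70 nucleotide exchange factor, read 903 in low medium at day 5 and 162 in callus, a log2 ratio of 2.48. Hop2 and the DnaJ gene AT4G28480 were just past the 2-fold line, with log2 ratios of 1.16 and 1.06. Among Hsp70 genes, these did not pass it: Hsp70-2 read 329 in low medium at day 5 and 352 in callus, and AT3G09440 read 1428 in low medium at day 5 and 1171 in callus.

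A further DnaJ gene, AT1G71000, read 234 in low medium at day 5 and 0.7 in callus, a log2 ratio of at least 3.24, and AT2G19310, of the HSP20-like family, read 249 in low medium at day 5 and 31.2 in callus, a log2 ratio of 2.99. Folding in the endoplasmic reticulum moved less. Of 43 genes listed for it, 17 were measured and 1 was at least 2-fold higher, with a median log2 ratio of 0.20. That gene was BZIP60, a transcription factor of the unfolded protein response, at 701 in low medium at day 5 and 287 in callus, a log2 ratio of 1.29. It stayed at 658 in low medium at day 9 and read 493, 714 and 710 in high medium at days 2, 5 and 9. BZIP28, another factor of that response, had a log2 ratio of 0.96, and the calreticulin gene CRT1b had -0.46. Of 9 measured proteasome subunits, which degrade proteins that are not refolded, 9 read lower than in callus, but only AT1G75990 passed 2-fold, at -1.09, and the median was -0.10.

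**Figure D2:**
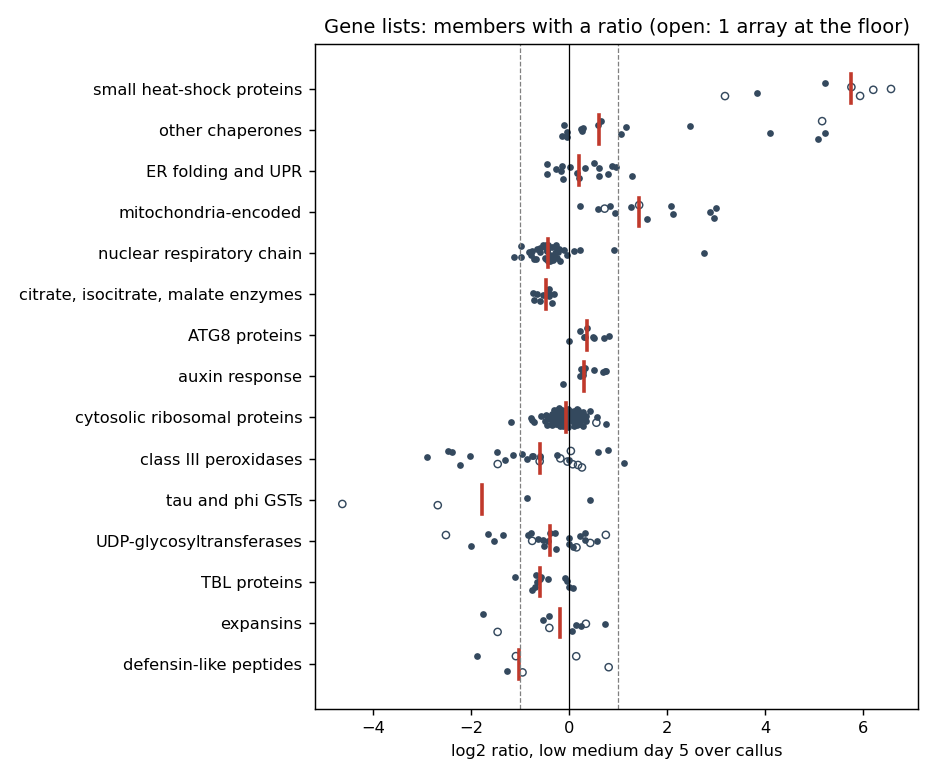
Each point is 1 gene with a log2 ratio of low medium at day 5 over callus on the x axis, by gene list, with open points where 1 array lay at the floor, red bars at list medians and dashed lines at 2-fold. Small heat-shock genes have a median of 5.76 and mitochondria-encoded genes of 1.43, while class III peroxidases have a median of -0.60 and cytosolic ribosomal proteins of -0.07.

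The other named genes with the largest rises were of several kinds. AT5G10695 read 1884 in low medium at day 5 and 61.5 in callus, a log2 ratio of 4.94, and AT3G10020 read 1815 in low medium at day 5 and 124 in callus, a log2 ratio of 3.87. AT1G72800 read 690 in low medium at day 5 and 55.2 in callus, a log2 ratio of 3.64. AT5G12110, a subunit of translation elongation factor 1, read 765 in low medium at day 5 and 72.1 in callus, a log2 ratio of 3.41. AT1G72660, a GTP-binding protein of the DRG family, read 345 in low medium at day 5 and 19.8 in callus, a log2 ratio of at least 3.80. AT3G07150, AT1G72060 and AT5G47830 had log2 ratios of 3.60, 3.18 and 2.96. The largest rises also include probe sets with no gene name in the annotation used here: one read 1962 in low medium at day 5 and 37.4 in callus, and another read 1712 in low medium at day 5 and 33.4 in callus. Of the 993 probe sets past 2-fold, 468 (47.1%) are not in that annotation, against 38.4% of all probe sets, so the genes named here cover only part of the changes.

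Genes of the respiratory chain differed by the genome that encodes them. The mitochondrial genome encodes a few core subunits of each complex, and the nucleus encodes the rest. Of 15 measured mitochondria-encoded genes, 13 had a ratio and all 13 read higher than in callus, with a median log2 ratio of 1.43. Over all 15 the median was 1.26. At least 2-fold higher were 8 and 0 were lower, against 1.83% and 1.85% of all named genes. Any member at the floor in callus has a ratio only by reading above it in low medium at day 5, so it could not have fallen. Of 44 measured nuclear genes of the chain, 43 had a ratio, 39 read lower and 4 higher, with a median of -0.43; past 2-fold were 1 higher and 1 lower. The nuclear median is a small shift in 1 direction that, apart from these genes, stayed inside 2-fold.

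Several mitochondria-encoded genes encode subunits of complex I. Of these, nad6 read 199 in low medium at day 5 and 25.1 in callus, a log2 ratio of 2.99, and nad5 read 505 in low medium at day 5 and 65.4 in callus, a log2 ratio of 2.95. The genes nad1 and nad4L had log2 ratios of 2.11 and 2.08, and nad9 had 1.26, while nad4 read 269 in low medium at day 5 and 233 in callus. The complex IV subunit gene cox1 read 489 in low medium at day 5 and 162 in callus, a log2 ratio of 1.59. Over the course, nad5 read 65.4 in callus, 505 and 254 at days 5 and 9 in low medium, while high medium gave 110, 394 and 283 at days 2, 5 and 9. The medians of the members with a ratio were 1.43 and 0.61 in low medium at days 5 and 9, while high medium gave 0.35, 1.24 and 1.12 at days 2, 5 and 9. A stretch of mitochondrial DNA also lies in the Arabidopsis nuclear genome, and probe sets do not separate the copies.

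**Figure D3:**
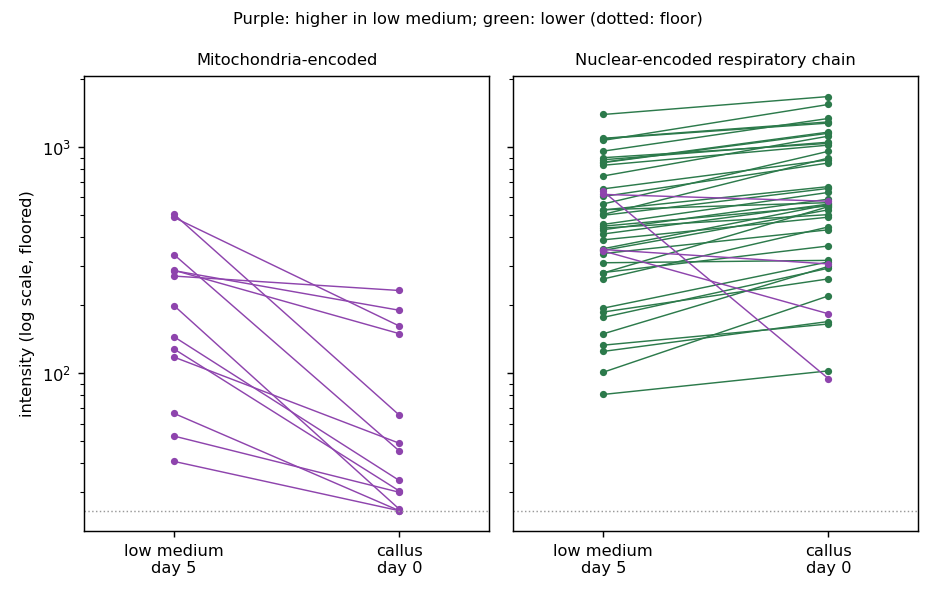
Each line joins the intensity of 1 gene in low medium at day 5 (left) to that in callus (right) on a log scale, with values raised to the floor of 24.7, for mitochondria-encoded genes and for nuclear genes of the respiratory chain. All 13 mitochondria-encoded genes with a ratio are higher in low medium at day 5, and 39 of 43 nuclear genes with a ratio are lower.

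Among the nuclear genes, AT5G25450, a subunit of complex III, read 638 in low medium at day 5 and 94.8 in callus, a log2 ratio of 2.75, against the direction of the list. It read 339 at day 9 in low medium, while high medium gave 281, 486 and 375 at days 2, 5 and 9. AT2G19680, of the ATP synthase, read 101 in low medium at day 5 and 220 in callus, a log2 ratio of -1.12, and the others were smaller. AT1G80230, of complex IV, had -0.99, and AT2G40765, of complex III, had -0.97. Both genes of cytochrome c, which carries electrons to complex IV, went apart: CYTC-1 read 1073 in low medium at day 5 and 1547 in callus, and CYTC-2 read 348 in low medium at day 5 and 184 in callus. Outside the chain, enzymes of citrate, isocitrate and related organic acids had 12 measured genes. Of these, 10 had a ratio and all 10 read lower without passing 2-fold, with a median of -0.48. The cytosolic isocitrate dehydrogenase gene cICDH, for example, read 1246 in low medium at day 5 and 1874 in callus, and the ATP-citrate lyase gene ACLA-1 had a log2 ratio of -0.72.

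Falls were counted among secreted oxidative enzymes and conjugating enzymes. Of 72 class III peroxidases listed by locus, 53 were measured and 27 had a ratio, with a median log2 ratio of -0.60. Over all 53 the median was 0. At least 2-fold, 9 fell and 1 rose, against 1.85% and 1.83% of all named genes. AT5G64100 read 40.9 in low medium at day 5 and 305 in callus, a log2 ratio of -2.90. AT1G71695 read 101 in low medium at day 5 and 563 in callus, a log2 ratio of -2.48, and AT5G51890 had -2.39. AT5G17820 read 30.8 in low medium at day 5 and 144 in callus, and AT2G37130 read 52.7 in low medium at day 5 and 215 in callus, log2 ratios of -2.23 and -2.03. The family did not move as one, and PRXR1 read 1977 in low medium at day 5 and 2360 in callus. AT2G18980 went the other way, at 181 in low medium at day 5 and 83.6 in callus, a log2 ratio of 1.11. In high medium AT2G18980 read 65.5, 57.9 and 120 at days 2, 5 and 9. AT3G21770, AT4G08780 and AT4G36430 fell by 1.47, 1.30 and 1.14 on the log2 scale, and AT2G43480 had at most -1.46.

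Glutathione transferases of the tau and phi classes had 13 measured genes but only 4 with a ratio, since 9 lay at the floor on both arrays. GSTU25 was below the floor, at 23.0 in low medium at day 5 and 612 in callus, a log2 ratio of at most -4.63. GSTU26 read 22.3 in low medium at day 5 and 159 in callus, at most -2.68. The median log2 ratio of the 4 was -1.78, and over all 13 it was 0. GSTU25 and GSTU26 have a ratio only because they read above the floor in callus, so they could not have risen. GSTU27 and GSTU16 did not pass 2-fold, with log2 ratios of -0.87 and 0.42. GSTU25 and GSTU26 therefore account for the 2 falls among the 13 measured, and 0 rose, against 1.85% and 1.83% of all named genes. Beyond this class, MSRB5, which repairs oxidised methionine in proteins, read 195 in low medium at day 5 and 960 in callus, a log2 ratio of -2.30. It read 458 at day 9 in low medium, while high medium gave 501, 765 and 336 at days 2, 5 and 9, so the low medium array of day 5 held its lowest value.

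Of 51 measured UDP-glycosyltransferases, 25 had a ratio, with a median log2 ratio of -0.39. Over all 51 the median was 0. At least 2-fold lower were 5 and 0 were higher, against 1.85% and 1.83% of all named genes. UGT73B4 read 262 in low medium at day 5 and 758 in callus, a log2 ratio of -1.53. UGT73B5 read 38.5 in low medium at day 5 and 155 in callus, and UGT71C3 read 41.8 in low medium at day 5 and 131 in callus, log2 ratios of -2.01 and -1.65. UGT76B1 was below the floor in low medium at day 5, at 6.3, and read 141 in callus. UGT76B1 glucosylates isoleucic acid and salicylic acid in defence. UGT76C2, which inactivates cytokinins by attaching glucose, read 104 in low medium at day 5 and 265 in callus, a log2 ratio of -1.35, and was back at 234 in low medium at day 9. Of 24 genes on a cytokinin list only 2 were measured, the response regulators ARR15 and RR16. Both lay at the floor on both arrays.

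**Figure D4:**
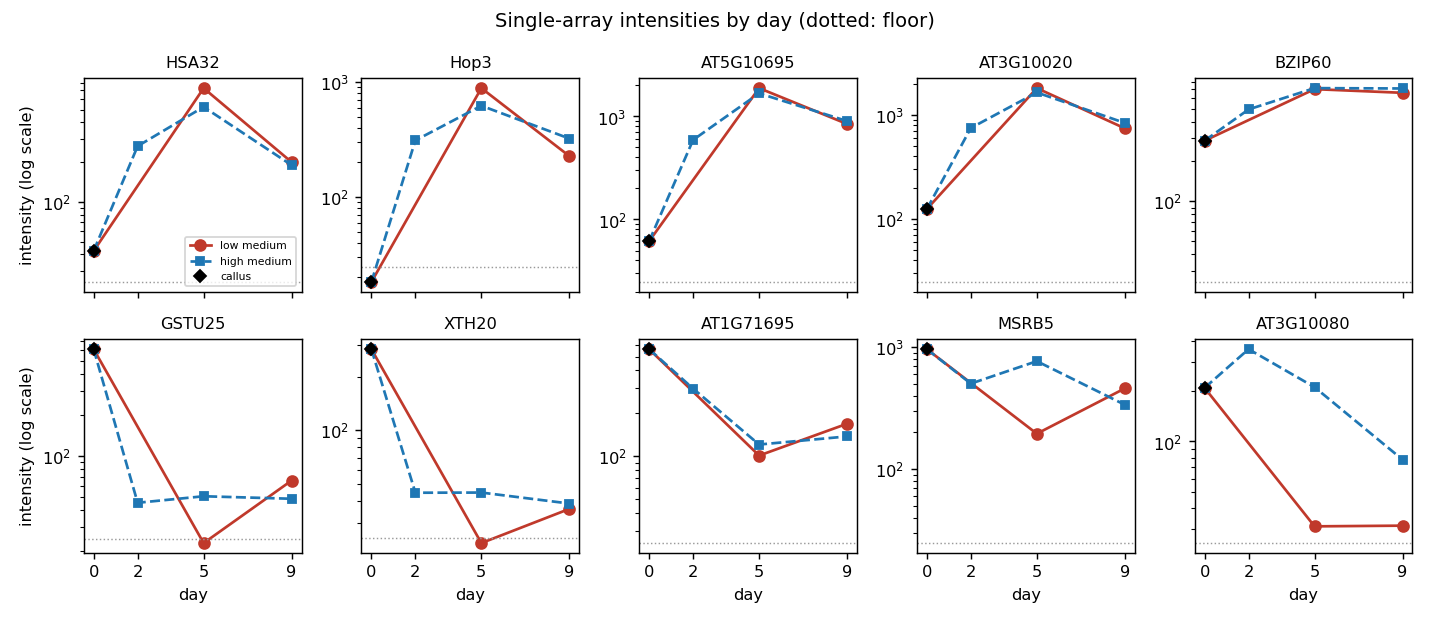
Single-array intensities on a log scale against day for 5 genes that rose and 5 that fell in low medium at day 5, with the callus array at day 0, low medium as a red solid line and high medium as a blue dashed line; the dotted line is the floor of 24.7. AT3G10080 reads 31.1 and 31.4 in low medium at days 5 and 9, while it reads 356, 211 and 77.9 in high medium at days 2, 5 and 9.

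Other genes with large falls were found in secondary metabolism and the cell wall. AT3G13610, the feruloyl-CoA 6'-hydroxylase of scopoletin synthesis, read 36.2 in low medium at day 5 and 243 in callus, a log2 ratio of -2.75. AT3G60420 read 14.2 in low medium at day 5 and 321 in callus, at most -3.70. AT4G01870 read 124 in low medium at day 5 and 887 in callus, a log2 ratio of -2.84, and read 125 in low medium at day 9. XTH20, a xyloglucan endotransglucosylase that cuts and rejoins wall polymers, read 23.2 in low medium at day 5 and 285 in callus, at most -3.53. It was the only 1 of 10 measured family members to pass 2-fold, and 4 of the 5 with a ratio read lower than in callus. The AAA-ATPase gene AT1G43910 read 79.9 in low medium at day 5 and 380 in callus, and the gene ZW9 read 89.8 in low medium at day 5 and 478 in callus. AT3G28510 and AQI were below the floor in low medium at day 5 and read 165 and 150 in callus. Expansins, which loosen walls, had 19 measured and 10 with a ratio: EXPA9 fell by 1.76 on the log2 scale, EXPA8 had at most -1.46, and EXPA4 and EXLA1 read 797 and 639 in low medium at day 5, against 1057 and 386 in callus. Trichome birefringence-like proteins, many of which acetylate wall polysaccharides, had 22 measured and 12 with a ratio. Of the 12, 11 read lower, with a median of -0.59. Over all 22 the median was -0.00, and only TBL23 passed 2-fold, at -1.10. Defensin-like peptides, secreted antimicrobial proteins, had 15 measured, of which 6 had a ratio. Of the 15 measured, 3 fell, against 1.85% of all named genes, and the median over all 15 was 0. LCR69 read 308 in low medium at day 5 and 1141 in callus, a log2 ratio of -1.89. LCR67 had -1.28, and LCR68 had at most -1.09. The beta-glucosidase PYK10 read 1595 in low medium at day 5 and 2298 in callus, short of 2-fold.

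The high medium array of day 5 was set beside these differences, as the other culture of the same day. Between low and high medium at day 5, 35 named genes (0.262%) rose and 72 (0.539%) fell at least 2-fold in low medium. The genes named next were chosen for differing most from high medium in the direction in which they differed from callus. That low medium stood apart from both was therefore fixed by the choice. AT3G10080, of the germin-like type, read 31.1 in low medium, 211 in high medium and 209 in callus. The aspartyl protease gene AT3G61820 read 157 in low medium at day 5, 516 in high medium at day 5 and 501 in callus, and AT3G51410 read 28.5, 92.2 and 90.2 on those arrays in the same order. These genes were close in high medium and callus. The class III peroxidase gene AT5G51890 read 27.8 in low medium at day 5 and 101 in high medium at day 5, against 145 in callus. In the opposite direction, AT5G62720 read 110 in low medium at day 5, 27.9 in high medium at day 5 and 25.3 in callus. AT2G03850, of the late embryogenesis abundant family, read 139 in low medium at day 5, 43.2 in high medium at day 5 and 26.7 in callus, and remained at 115 in low medium at day 9. Of the peroxidases, 5 read below and 1 above high medium by 2-fold at day 5. None of the small heat-shock or other chaperone genes with a ratio differed 2-fold between the media at day 5.

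Against low medium at day 9, 48 named genes (0.359%) were at least 2-fold higher and 18 (0.135%) lower at day 5. The 7 genes also higher than callus with the largest such ratios were mostly chaperones: AT1G71000 had a log2 ratio of day 5 over day 9 of 2.46, Hop3 of 1.96, HSA32 of 1.86, AT5G37670 of 1.86, AT5G12110 of 1.80, AT5G48570 of 1.78 and AT1G72660 of 1.75. Hop3, for example, read 18.2 in callus, 886 at day 5 and 227 at day 9. HSA32 read 42.5 in callus, 728 at day 5 and 200 at day 9. That these genes read lower at day 9 than at day 5 was fixed by how they were chosen. At day 9 they still read above callus. NRT2.5, a nitrate transporter gene, read 102 in callus, 49.4 at day 5 and 159 at day 9. It was chosen for being lower at day 5 than in callus and at day 9, so this too was fixed.

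Most of the measured genes tied to sugar supply changed less than 2-fold, but direct markers were nearly all unread. Of 26 listed sugar starvation genes only 1 was measured, AKINBETA1, with a log2 ratio of 0.14. The autophagy list, whose proteins recycle cell contents when carbon or nitrogen is short, had 11 measured genes, of which 10 read higher and 0 passed 2-fold, with a median of 0.37. APG8A read 470 in low medium at day 5 and 269 in callus, a log2 ratio of 0.80, and ATG8F read 1052 in low medium at day 5 and 840 in callus. SDP1, a lipase that breaks down stored oil, rose past 2-fold, at 190 in low medium at day 5 and 90.5 in callus. The sugar transporter SFP1 read 105 in low medium at day 5 and 45.8 in callus, a log2 ratio of 1.19. SWEET1 read 69.3 in low medium at day 5 and 154 in callus, a log2 ratio of -1.15. They were the 2 past 2-fold among 21 measured transporters, of which 11 had a ratio. Over all named genes, 1.83% were higher and 1.85% lower. Branched-chain amino acid breakdown had 8 of 16 listed genes measured, with a median of -0.22 and 0 past 2-fold. Sulfate assimilation, which feeds glutathione synthesis, had 3 measured genes, all lower than in callus and 0 past 2-fold, with SIR at 354 in low medium at day 5 and 704 in callus.

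The measured hormone and osmotic genes also moved within 2-fold for the most part, though few osmotic genes were read. The auxin response list had 14 measured genes and 10 with a ratio, of which 9 read higher and 0 passed 2-fold, with a median of 0.30. The auxin-conjugating enzyme genes WES1 and GH3.3 read 2025 and 2062 in low medium at day 5, against 1251 and 1742 in callus. IAA18 and IAA20, repressors of auxin signalling, had log2 ratios of 0.76 and 0.74. The medium holds the same amount of 2,4-D as the callus medium. Of 32 listed osmotic stress and abscisic acid genes, 5 were measured and 4 had a ratio, of which 1 passed 2-fold. It was the dehydrin gene LTI30, an osmotic and cold response gene. LTI30 read 103 in low medium at day 5 and 256 in callus, a log2 ratio of -1.31. The dehydrin COR47 had a log2 ratio of -0.49 and ALDH7B4, also induced by water stress, had -0.05.

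Broad machinery gave small shifts. Of 113 measured cytosolic ribosomal protein genes, 110 had a ratio, 0 were higher and 1 lower by 2-fold, with a median of -0.07. The exception was AT4G39200, at 891 in low medium at day 5 and 2022 in callus, a log2 ratio of -1.18. Of 69 measured chloroplast-encoded genes, 64 had a ratio, 2 were higher and 1 lower by 2-fold, with a median of 0.29. These were psbB, at 63.0 in low medium at day 5 and 30.2 in callus, rps14, at least 1.28 on the log2 scale, and psaJ, which fell by 1.62. Tubulins and actins had 7 genes with a ratio, 6 of them lower, with a median of -0.44 and 0 past 2-fold. The ratios of TUB5 and ACT11 are bounds, and no kinesin was among the genes measured for this list.

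The cell type was not given, and marker genes were few in the annotation used here. Of 13 tracheary element markers, 2 were measured. IRX10 read 80.6 in low medium at day 5 and 95.2 in callus, and IRX15 read 3.4 in low medium at day 5 and 31.5 in callus, so the list summed to 84.0 in low medium at day 5 and 126.7 in callus. The cambium gene LHW read 213 in low medium at day 5 and 270 in callus, and the phloem gene OPS read 21.6 in low medium at day 5 and 40.4 in callus. ACR4, EXPA7 and CLV3, of epidermis, root hair and shoot meristem, were at or below the floor in both, and 0 of 5 root meristem markers were measured. The 2 mesophyll markers measured, RCA and LHCB4.1, summed to 187.9 in low medium at day 5 and 153.3 in callus. LBD16, a gene of callus and lateral root founder cells, read 170 in low medium at day 5 and 137 in callus, and LBD29 was below the floor in both. No marker list was near 0 in callus and high in low medium at day 5.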

How the data were processed

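RNA of 6 Arabidopsis cultures was measured on ATH1 arrays, 1 array for each of 6 groups. The authors deposited one intensity per probe set on a linear scale, for 22810 probe sets. How they were summarised and scaled, and with which software, was not given in the sources used here. All 64 control probe sets were left out of the comparisons, intensities below 24.7 (the 40th percentile, as the median of the 6 arrays) were raised to that floor, and log2 ratios were taken. The deposited scaling was kept. Differences of 2-fold or more were counted, with no test. The number of arrays limits the precision. All value columns were used.

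The platform annotation gives 1 gene for 13513 probe sets, several for 503 and none for 8730. Symbols came from the RefSeq table of assembly TAIR10.1, with 13436 matched. A gene kept its probe set with the highest mean signal. The genes named were the 15 largest rises and falls, 8 bounds each way, list members with the largest ratios or signals, the 8 that also differed most from high medium at day 5 or from low medium at day 9, and the markers. The members and lists were chosen with earlier results of these data known, and 25 lists were added after the annotation and first values were seen. Members named beyond this rule (ARR15, RR16, Fes1A, Hop2, AT4G28480, CRT1b, nad4L, nad9, UGT76C2 and the peroxidases AT2G18980, AT2G43480, AT3G21770, AT4G08780 and AT4G36430) were chosen after their values were seen. Python 3.11.15, numpy 2.4.6 and pandas 2.3.3 were used, and the counting was tested on simulated data. Alternatives were other floors, no floor with 50 added, equal medians and quantile scaling.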

Additional observations from a re-analysis of the deposited data

Results flagged for a closer look

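PR-1-LIKE, a gene of the pathogenesis-related protein family, was picked out because at day 5 it fell at least 2-fold from callus in low medium and read at least 1.5-fold higher than callus in high medium. With a 2-fold limit in both media, 0 named genes and 4 probe sets without a named gene had opposite directions. It read 44.5 in low medium at day 5 against 97.8 in callus, a log2 ratio of -1.14, and 158 in high medium at day 5, a log2 ratio to callus of 0.69. Both comparisons share the callus array, 1 array stands on each side, and the difference between them was not tested. It read 165 at day 2 and 72.3 at day 9 in high medium and 51.2 at day 9 in low medium.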

How the results depend on the processing

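The counts depended on the floor. For 448 higher and 545 lower probe sets, a floor at the 20th percentile gave 973 and 1019, a floor at the 60th gave 292 and 294, and 50 added with no floor gave 191 and 184. Equal medians gave 493 and 471, and quantile scaling 475 and 518, and under both scalings the 28 list medians checked moved by at most 0.2 on the log2 scale. With low medium at day 9 in place of day 5, an alternative chosen after seeing the data, the counts were 271 and 356. Medians of members with a ratio moved with the floor, since its height sets which members have a ratio and where bounds lie. With the floor at the 20th percentile, at the 60th, and with 50 added, they were 5.22, 4.54 and 4.47 for small heat-shock genes (5.76 as reported), 1.84, 0.98 and 1.08 for mitochondria-encoded genes (1.43) and -0.18, -1.58 and -0.67 for defensin-like peptides (-1.02). For tau and phi glutathione transferases they were 0.16, a reversed direction, -1.28 and -1.09, against -1.78 as reported. With the floor at the 20th percentile, class III peroxidases had -0.37 (-0.60 as reported), beta-glucosidases -0.16 (-0.56) and sugar transporters 0.31 (0.07). With the floor at the 60th, other chaperones had 0.85 (0.62 as reported) and the osmotic list -0.49 (-0.27). With 50 added, class III peroxidases had -0.34 and trichome birefringence-like proteins -0.33 (-0.59 as reported). Of 87 single genes past 2-fold, 0 reversed, while 2 fell short of it with equal medians (NRT2.5 and SCPL45), 11 with the floor at the 60th percentile and 24 with 50 added, among them TBL23, AT2G19680, AT1G75990, LTI30, SDP1, SFP1, SWEET1, psbB and rps14. A further 6 (APL4, BGLU28, LCR68, RALFL24, psbB and rps14) had no ratio with the floor at the 60th percentile. No paired analysis was possible because each group holds 1 array.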
